A study of Mus musculus with 15 samples.

Results

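The genes of proteoglycan sulfation and glycosaminoglycan synthesis were followed through RNA-Seq of NMuMG-derived cells. NMuMG is an established mouse mammary epithelial line. Members were all genes whose symbols belong to the families of chain-building enzymes, sulfotransferases, sulfatases, epimerases and hyaluronan synthases, with the syndecan and glypican core proteins. That rule found 52 members among 15701 genes listed in either dataset, 45 of them in dataset 1 and 49 in dataset 2. Members were taken by name, but the set itself was selected on the CPM of Chst11 and Chst1, which were low in knockout cells, so their values there are given as a description without a test.

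Dataset 2 compared NMuMG cells carrying an shRNA against PCBP1 (shPCBP1, 2 libraries) with 2 libraries that the labels call NMuMG without treatment and the study describes as cells with a scrambled shRNA. Dataset 1 held 4 shPCBP1 lines as controls, 3 FAM3C KO clones, 3 LIFR KO clones and 1 double KO clone, and every one of its cells, controls included, carried the PCBP1 shRNA. The controls were the unaltered shPCBP1 line and CT clones 1 to 3, which had received Cas9 without a guide RNA. Knockouts were made with paired guide RNAs that excise a coding fragment, and each clone was grown from single cells and gave 1 RNA sample. Differences between groups therefore include differences between clones, and for dataset 2 nothing in the labels says that the libraries of a group came from separate cultures, so its p-values measure only the spread between those samples.

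Glycosaminoglycans are long sugar chains built on a short linker that is attached to serine residues of core proteins. Heparan sulfate and chondroitin sulfate share this linker, and each chain is then elongated by its own polymerases and decorated with sulfate at defined positions, which sets which growth factors, cytokines and matrix proteins can bind. Keratan sulfate is carried on other glycans, and hyaluronan is made at the plasma membrane without a core protein or sulfate. In mammary epithelium, syndecans and glypicans carry heparan sulfate at the cell surface and act as co-receptors.

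Values are CPM, read counts scaled so that every library has one common total, and tests were made with limma on log2(CPM + 0.1), with an adjusted p under 0.07 as the threshold. Library sizes implied by the lowest value listed, taken as 1 read, were 16031859 to 46901675 reads in dataset 1. Those implied by the step between low values were 53032111 to 56496537 reads in dataset 2. Among the tested genes of dataset 1, 3 libraries stood apart, namely LIFR KO clone 2, LIFR KO clone 3 and the double KO. Their differences from shPCBP1 fell with the GC content of the gene (Spearman rho of -0.74, -0.73 and -0.68 over 12603 genes, against -0.27 to 0.22 in the other libraries). Mitochondrial genes held 7.16% to 8.58% of their summed CPM, against 3.14% to 4.06% elsewhere. Pcbp1 stood at 287 and 312 CPM in NMuMG and at 14.1 and 14.2 CPM in shPCBP1 of dataset 2. The knockouts were not visible as absent transcripts, with Fam3c at 26.4 to 42.9 CPM in FAM3C KO against 47 to 59.4 CPM in shPCBP1, and Lifr at 14.6 to 34.9 CPM in LIFR KO against 25.8 to 40.2 CPM. Of 12 epithelial markers, 8 were in each file and 7 of them reached 1 CPM in every group, while none of the endothelial (4), basal (6), fibroblast (5) and adipocyte (4) markers that were listed averaged 1 CPM in a group, and of 6 immune markers only Cd68 did.

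Chst11 (chromosome 10, 82985498 to 83195900, GRCm38) encodes an enzyme that places sulfate on the 4-O position of N-acetylgalactosamine in chondroitin. Chst1 (chromosome 2, 92599707 to 92615250) encodes a keratan sulfate galactose 6-O-sulfotransferase. Because the set was selected on these genes, the 250 bases before the RefSeq start of each (GRCm38.p6, plus strand) are shown 5′ to 3′ in lower case, with the E-box letters CANNTG in capitals.
Chst11, chr10:82985247-82985496: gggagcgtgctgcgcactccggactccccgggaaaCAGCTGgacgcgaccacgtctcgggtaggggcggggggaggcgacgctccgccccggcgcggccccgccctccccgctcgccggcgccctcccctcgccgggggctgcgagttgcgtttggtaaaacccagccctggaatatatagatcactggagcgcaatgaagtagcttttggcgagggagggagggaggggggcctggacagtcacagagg
Chst1, chr2:92600867-92601116: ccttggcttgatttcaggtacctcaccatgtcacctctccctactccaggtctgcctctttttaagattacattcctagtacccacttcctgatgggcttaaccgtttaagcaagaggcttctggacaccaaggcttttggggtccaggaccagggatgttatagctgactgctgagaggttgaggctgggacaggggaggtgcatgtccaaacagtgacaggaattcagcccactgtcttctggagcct
The windows differ in composition. That of Chst11 has a GC content of 70% with 26 CpG pairs and 1 E-box, and that of Chst1 has 51.6% with 1 CpG pair and no E-box. Neither holds the STAT letters TTCNNNGAA. Both motifs read the same on either strand, and they were found in 66.2% (E-box) and 7.02% (STAT letters) of all 32851 windows of this length, and in 55.6% and 2.22% of the 45 windows of the 38 members matched by symbol. The Chst1 window lies inside the GENCODE gene interval, which starts further upstream.

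Chst11 in dataset 1 stood at 35.7, 62.4 and 34.8 CPM in CT clones 1 to 3 and at 24.5 CPM in the unaltered line. FAM3C KO clones 1 to 3 had 0.177, 1.20 and 1.04 CPM. The LIFR KO group had 0.751 CPM in clone 1, 0.208 CPM in clone 2 and 0.0429 CPM in clone 3, the last being the lowest value its library lists. The 4 controls lay above all 6 single knockout clones, and the lowest control was 20.4 times the highest FAM3C KO clone and 32.6 times the highest LIFR KO clone. The log2 difference of Chst11 from shPCBP1 was -5.65 in FAM3C KO and -6.80 in LIFR KO, or -4.45 and -4.87 when 1 CPM was added in place of 0.1. GC-corrected values gave -6.64 in LIFR KO, and clone 1 by itself, whose library did not stand apart, gave -5.45. The double KO library listed Chst11 at its lowest value, 0.0468 CPM.

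Chst1 stood at 27.1, 29.8 and 21.8 CPM in CT clones 1 to 3 and at 11.98 CPM in the unaltered line. The FAM3C KO clones had 5.89, 0.5999 and 3.80 CPM, and the LIFR KO clones 0.590, 1.91 and 0.0429 CPM. No knockout clone of either kind reached a control line, but the margin was narrower than for Chst11, since the lowest control was 2.03 times the highest FAM3C KO clone and 6.26 times the highest LIFR KO clone. The log2 differences of Chst1 were -3.08 in FAM3C KO (-2.16 without clone 2) and -5.21 in LIFR KO. The LIFR KO value was -4.69 after GC correction, -3.73 with 1 CPM added and -4.19 without clone 3. Both comparisons rest on the same 4 control lines. In the double KO, Chst1 was at 11.4 CPM, close to the unaltered line, while Chst11 was at the bottom of the scale.

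**Figure D1:**
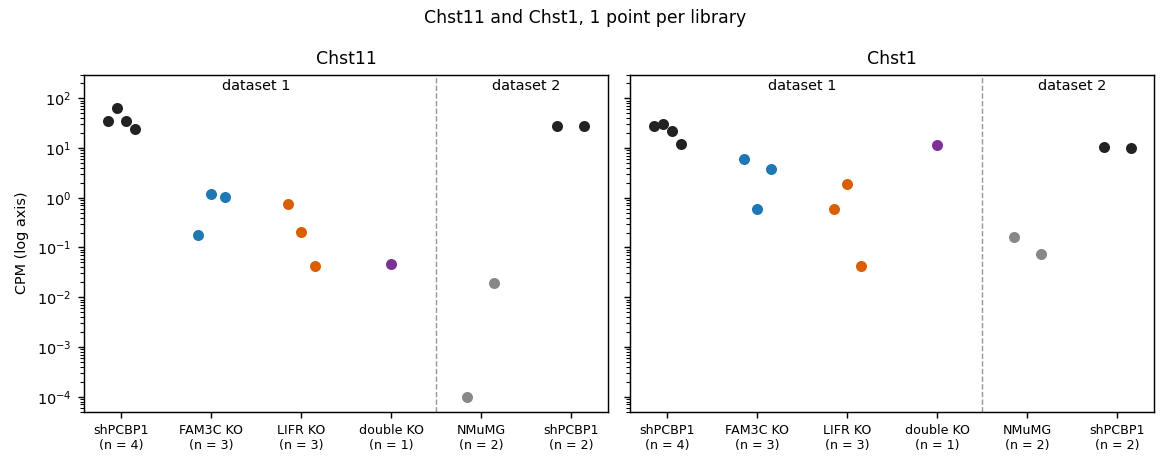
CPM of Chst11 and Chst1 on a log axis, 1 point per library, in the groups of dataset 1 (left of the dashed line) and dataset 2 (right). Chst11 is at most 1.20 CPM in every knockout library and in NMuMG, and at 24.5 CPM or more in every shPCBP1 library, while Chst1 in the double KO (11.4 CPM) lies near the lowest shPCBP1 line.

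Dataset 2 asked what PCBP1 knockdown does in NMuMG cells, and here most of the large changes among the members were gains in shPCBP1. Of 37 members tested, 16 passed the threshold with a fold change of at least 1.5 (11 higher, 5 lower), which is 43.2% of them against 31.1% of all 11384 genes tested (16.0% higher, 15.1% lower). With a fold change of at least 4, 8 members passed (7 higher and 1 lower), which is 21.6% against 6.04% of all genes (3.93% higher, 2.12% lower). The median log2 difference of the members was -0.07, against 0.03 over all genes. Mesenchymal markers moved with this comparison, 6 of 12 averaging 1 CPM in NMuMG (sum of 598 to 617 CPM) and 9 of 12 in shPCBP1 (1640 to 1670 CPM), while the 8 epithelial markers listed summed to 2990 to 3050 CPM and 2800 to 2860 CPM, and their part in the members' changes was not tested. The filter on low values let a member in if it was high in either group, so these shares describe only the members that passed it. The 16 and the 8 both include Chst11 and Chst1, whose knockout values led to the choice of this set. Of the 8 members past 4-fold, 7 (87.5%) averaged under 0.5 CPM in one of the groups and passed the filter through the other, as did 64.8% of the 688 genes past 4-fold. Those 7 are Chst11, Chst1, Hs6st2, Hs3st3b1, Gpc1, Sulf2 and Chst8, and they are given by their values without a p.

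The 7 members that rose by at least 4-fold were sulfotransferases, a sulfatase and a core protein. Chst11 was listed at 0.0001 and 0.0190 CPM in NMuMG, where 0.0001 is the value listed for no signal, and at 28.2 and 28.1 CPM in shPCBP1. No fold change is given for a member with an NMuMG library at that value, since the value added before the log sets it. Chst1 rose from 0.159 and 0.0755 CPM to 10.5 and 9.85 CPM (log2 difference 5.59, or 3.32 with 1 CPM added). The pair that was low in the knockouts was thus also near the bottom of the scale in NMuMG.

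Chst15, which adds a 6-O-sulfate to already 4-O-sulfated N-acetylgalactosamine, rose from 1.68 and 1.87 CPM to 43.3 and 43.9 CPM (log2 difference 4.54, SE 0.0736, adjusted p = 2.48e-12). It acts on the chain after Chst11. In the knockouts its values overlapped the controls, at 21.4 to 38.0 CPM in FAM3C KO and 18.8 to 36.9 CPM in LIFR KO against 21.1 to 29.0 CPM in shPCBP1. Chst7, another chondroitin 6-O-sulfotransferase, was under the filter, at 0.0001 CPM in both NMuMG libraries and at 0.197 and 0.462 CPM in shPCBP1.

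On the heparan sulfate side, Hs6st2, one of the 6-O-sulfotransferases, was listed at 0.0001 CPM in both NMuMG libraries and at 17.4 and 17.98 CPM in shPCBP1. Hs3st3b1, a 3-O-sulfotransferase, went from 0.0001 CPM in both to 3.21 and 3.49 CPM. Sulf2, an extracellular enzyme that removes 6-O-sulfates from heparan sulfate, rose from 0.0886 and 0.0944 CPM to 3.23 and 3.14 CPM (log2 difference 4.10). With 1 CPM added the difference of Sulf2 was 1.94, under 4-fold, and 6 members in place of 7 were higher by 4-fold or more. Thus an enzyme that adds this sulfate and one that removes it were both higher in shPCBP1.

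The abundant enzymes of the same steps changed by less than 1.5-fold. Hs6st1, the 6-O-sulfotransferase that NMuMG cells already had, stood at 74.4 and 77.3 CPM in NMuMG and 62.3 and 64.1 CPM in shPCBP1. Hs3st1 stood at 20.2 and 20.8 CPM against 25.9 and 25.1 CPM, and Hs2st1 at 81.6 and 79.2 CPM against 58.7 and 60.2 CPM. These 3 are among 18 members that passed the p threshold with a smaller change than that, and 34 members (91.9%) and 80.1% of all genes passed on p alone.

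Among the chain builders, Ext1, a heparan sulfate co-polymerase, rose from 56.5 and 54.2 CPM to 112.5 and 109.98 CPM (log2 difference 1.01, SE 0.0294, adjusted p = 1.46e-10). Its partner Ext2 stood at 31.9 and 33.1 CPM against 25.95 and 25.96 CPM. Ndst2, an N-deacetylase and N-sulfotransferase, rose from 5.50 and 5.68 CPM to 10.5 and 9.92 CPM (adjusted p = 1.10e-06). Chpf2, a chondroitin polymerizing factor, was higher (26.9 and 25.5 CPM against 45.8 and 44.9 CPM, adjusted p = 7.34e-09), whereas Csgalnact1, which starts the chondroitin chain, fell from 5.91 and 5.58 CPM to 3.28 and 3.10 CPM (adjusted p = 1.15e-05). The linker enzymes B3gat3 and Xylt2 did not reach a change of 1.5-fold.

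The core proteins split. Gpc1, a glypican, went from 0.0355 and 0.0001 CPM to 37.1 and 36.2 CPM. Gpc6 fell from 1.68 and 1.77 CPM to 0.520 and 0.684 CPM (log2 difference -1.39, SE 0.164, adjusted p = 1.36e-05, and -0.77 with 1 CPM added). Sdc3 rose from 1.75 and 2.21 CPM to 5.86 and 5.06 CPM (adjusted p = 1.76e-06). The abundant syndecans Sdc1 (232 and 228 CPM against 199.9 and 198.8 CPM) and Sdc4 (105.2 and 105.1 CPM against 84.4 and 80.4 CPM) changed by less than 1.5-fold.

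The other losses were Chst8, Dsel and Has1. Chst8, which sulfates N-acetylgalactosamine on N-glycans rather than on proteoglycans, fell from 4.51 and 4.34 CPM to 0.126 and 0.111 CPM (log2 difference -4.37, or -2.28 with 1 CPM added), the only member that fell by at least 4-fold. Dsel, an epimerase that turns chondroitin into dermatan sulfate, fell from 23.6 and 23.9 CPM to 9.43 and 8.50 CPM (log2 difference -1.40, SE 0.0608, adjusted p = 3.24e-09). Has1, a hyaluronan synthase, fell from 2.99 and 2.90 CPM to 1.11 and 1.05 CPM (adjusted p = 1.71e-06). Of the 12 members under the filter, none above 0.979 CPM, 9 had both shPCBP1 libraries above both NMuMG libraries and 1, Chst5, had both below, against 34.3% above and 24.7% below for all 3639 genes under it. None was tested.

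**Figure D2:**
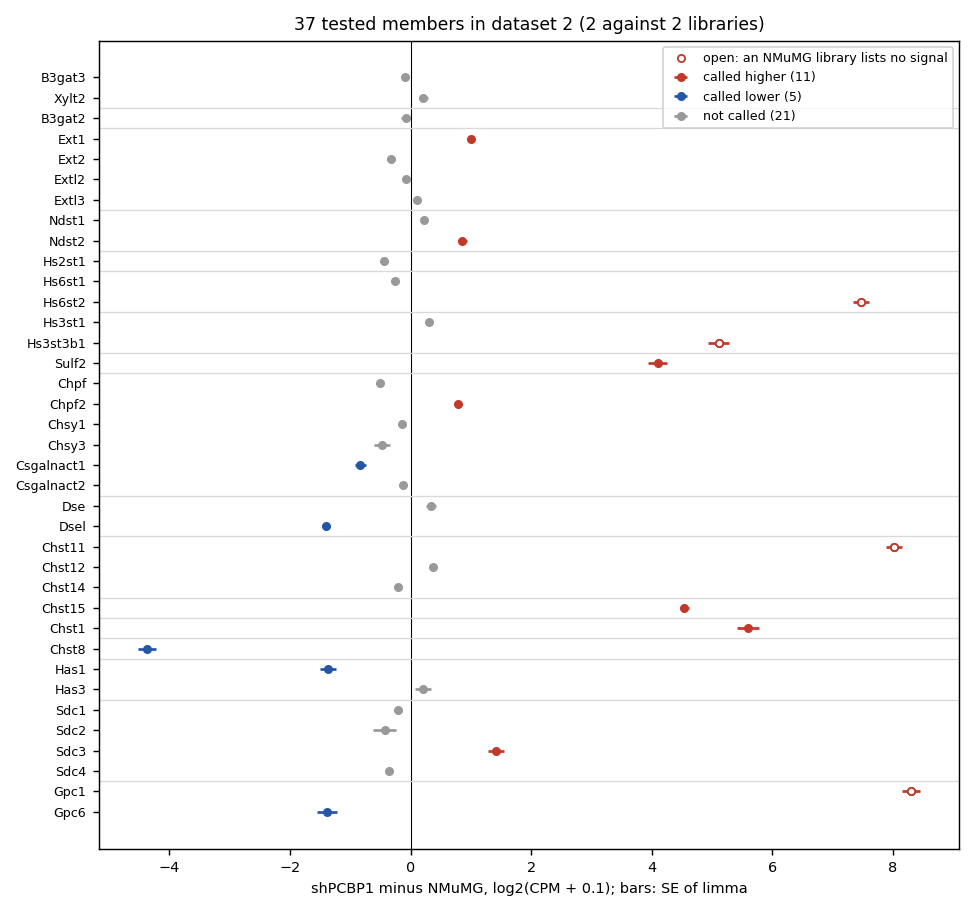
Log2(CPM + 0.1) difference of shPCBP1 minus NMuMG for the 37 tested members, ordered by step of the pathway, with the SE from limma as bars. The 11 members called higher are red, the 5 called lower are blue, and open circles mark members of which an NMuMG library lists no signal, so that their distance from zero depends on the 0.1 CPM added. For the 7 called members that passed the filter through 1 group only, colour and bar are not to be read as a test.

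Levels per kilobase of exon put these changes in proportion within each step. Chst11 held 28.7% to 28.8% of the summed CPM per kb of the chondroitin and dermatan 4-O-sulfotransferases in shPCBP1 of dataset 2 and at most 0.029% in NMuMG. In dataset 1 it held 22.3% to 40.6% in shPCBP1, 0.215% to 1.49% in FAM3C KO and 0.0722% to 0.835% in LIFR KO. Chst12 and Chst14 made up the rest. The summed level of the step was 19.9 to 27.8 CPM per kb in shPCBP1, 14.5 to 16.3 in FAM3C KO and 9.61 to 16.3 in LIFR KO. In LIFR KO the 16.3 was clone 1, and the lower sums were clones 2 and 3, whose values fell with GC content. Chst12 and Chst14 have exon GC of 58.8% and 56.4%. Chst12 differed from shPCBP1 by 0.05, -0.88 and -0.54 on the log2 scale in LIFR KO clones 1 to 3, and Chst14 by 0.13, -0.40 and -0.44.

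Glypicans showed an exchange of the leading member in dataset 2, with Gpc6 at 97.4% to 100% of the step in NMuMG and Gpc1 at 98.5% to 98.9% in shPCBP1. The summed glypican level was 0.269 and 0.276 CPM per kb in NMuMG and 7.27 and 7.13 in shPCBP1. For the heparan sulfate 6-O-sulfotransferases the sum was nearly level (a mean of 13.7 CPM per kb in both groups), and Hs6st2 held 16.6% of it in shPCBP1. Keratan sulfate 6-O-sulfotransferases, which in practice means Chst1, summed to 0.0676 and 0.0369 CPM per kb in NMuMG and 3.90 and 3.68 in shPCBP1.

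**Figure D3:**
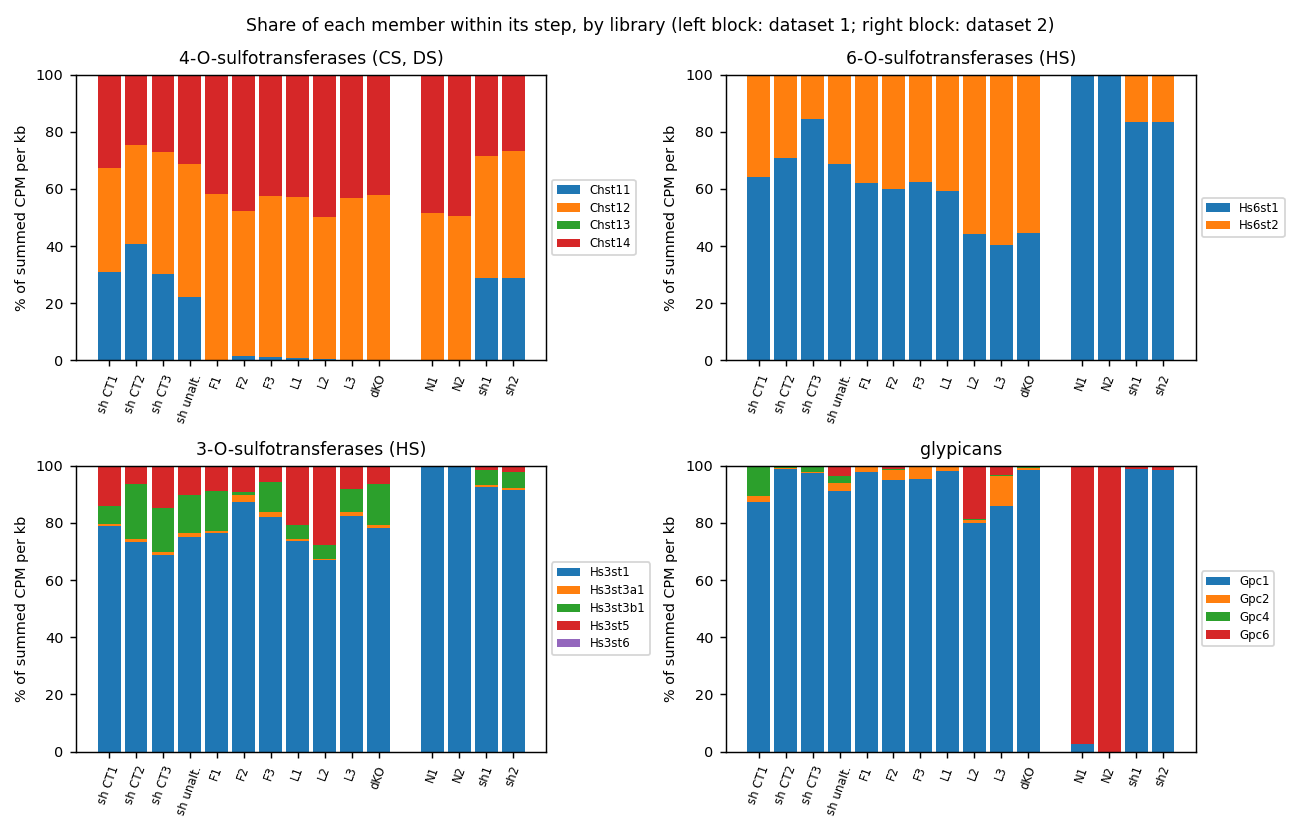
Share of each member in the summed CPM per kb of exon of its step, 1 bar per library (sh, shPCBP1; F, FAM3C KO; L, LIFR KO; dKO, double KO; N, NMuMG). Chst11 leaves the 4-O-sulfotransferase bars in all knockout libraries and NMuMG, and Gpc6 gives way to Gpc1 between NMuMG and shPCBP1.

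The highest member of each step, as CPM per kb averaged over the 4 shPCBP1 lines of dataset 1, gives the scale of the pathway in those lines. Sdc4 led the syndecans at 61.3 CPM per kb, Ndst1 the N-deacetylase/N-sulfotransferases at 21.3, Ext1 the heparan sulfate polymerases at 21.1 and B3gat3 the linker enzymes at 18.4. Hs3st1 led the 3-O-sulfotransferases at 18.9, Hs6st1 the 6-O-sulfotransferases at 14.4, Chpf2 the chondroitin polymerases at 10.8 and Gpc1 the glypicans at 9.57. Chst12 led the 4-O-sulfotransferases at 8.88, with Chst11 at 7.11, and Chst1 its own step at 8.46. Has1 led the hyaluronan synthases at 5.70, Chst15 the chondroitin 6-O-sulfotransferases at 3.80 and Dsel the epimerases at 3.11. Such levels did not carry over between datasets. In shPCBP1 of dataset 2, Has3 led the hyaluronan synthases at 0.333 CPM per kb. Has1 was at 1.11 and 1.05 CPM there, against 22.5 to 27.7 CPM in the shPCBP1 lines of dataset 1. In the knockouts Chsy1 stood above Chpf2 (9.89 against 9.31 in FAM3C KO and 9.21 against 7.49 in LIFR KO), and in LIFR KO Hs6st2 (10.6) stood above Hs6st1 (9.95). These orders are of group means and were not tested. In LIFR KO clone 1 by itself neither order was turned, nor was that of Chpf2 and Chsy1 in FAM3C KO clone 3. Chpf2 (exon GC of 60.9%) differed from shPCBP1 by 0.11, -0.92 and -1.03 on the log2 scale in LIFR KO clones 1 to 3. Hs6st1 (55.1% GC) differed by -0.06, -0.87 and -0.80. Clones 2 and 3 are those whose values fell with GC content.

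FAM3C KO cells addressed which genes depend on FAM3C in the shPCBP1 background. None of the 39 tested members other than Chst11 and Chst1 passed the threshold by limma, against 0.309% of all 12621 genes (39 genes). Their median log2 difference was 0.02, with 20 above zero and 19 below, against -0.01 over all genes. When FAM3C KO and shPCBP1 were fitted without the LIFR KO libraries, 3 of the 39 members passed, against 1040 of all 12621 genes. The share of the members was no higher than that of all genes. The 3 members were Csgalnact1 (log2 difference 0.84, adjusted p = 0.0303), Hs3st5 (-1.19, adjusted p = 0.0365) and Hs3st1 (-0.53, adjusted p = 0.0611).

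Groups did not overlap for 7 of these 39 members (17.9%), against 22.7% of all genes tested. Hs3st5, a heparan sulfate 3-O-sulfotransferase, was the only one of them with a difference of at least 1 on the log2 scale. It stood at 16.5, 8.45 and 15.3 CPM in CT clones 1 to 3, 9.42 CPM in the unaltered line, and 6.42, 5.16 and 4.19 CPM in FAM3C KO clones 1 to 3 (adjusted p = 0.448 with the 3 groups fitted together). LIFR KO clones did not share that order, with 22.7, 21.7 and 4.503 CPM. Csgalnact1 stood at 3.39, 3.56 and 2.23 CPM in CT clones 1 to 3, 3.06 CPM in the unaltered line, and 5.62, 5.52 and 5.26 CPM in FAM3C KO.

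LIFR KO cells addressed which genes depend on the LIF receptor in the same background. Of the 39 members, Dsel passed the threshold as higher and Sdc1 as lower (2 members, against 6.47% of all genes tested, 0.911% higher and 5.55% lower), and neither call held in most other fits. Dsel stood at 21.6, 12.9 and 21.4 CPM in CT clones 1 to 3, 15.9 CPM in the unaltered line and 29.2, 57.1 and 36.8 CPM in the 3 LIFR KO clones. All 3 clones lay above all 4 controls (log2 difference 1.16, SE 0.277, adjusted p = 0.0509). After GC correction the difference was 1.25 with adjusted p = 0.0868, and clone 1 by itself gave 0.73 with adjusted p = 0.44.

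Sdc1, the main syndecan of simple epithelia, stood at 142.8, 169.4 and 184 CPM in CT clones 1 to 3, 163 CPM in the unaltered line and 129, 78.2 and 111 CPM in the 3 LIFR KO clones. The groups did not overlap (log2 difference -0.66, SE 0.167, adjusted p = 0.0565). Its exons have a GC content of 58.9%, and after GC correction the difference was -0.07 (adjusted p = 0.813). Set directly against each other, FAM3C KO and LIFR KO differed at 1 member, again Sdc1, while 8.28% of all genes passed. FAM3C KO clones had 197.1, 154 and 174 CPM, and the log2 difference from LIFR KO was 0.75 (SE 0.179, adjusted p = 0.0457), or 0.18 after GC correction (adjusted p = 0.455).

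A further 3 members had LIFR KO values entirely below the controls and a difference of at least 1 on the log2 scale, and did not pass the threshold. Sdc3 had 1.68, 0.929 and 6.45 CPM in CT clones 1 to 3, 1.41 CPM in the unaltered line and 0.536, 0.0870 and 0.643 CPM in LIFR KO (log2 difference -2.21, adjusted p = 0.0785). The difference of Sdc3 was -1.52 after GC correction (adjusted p = 0.257), -1.15 with 1 CPM added, and -1.59 without LIFR KO clone 2 (adjusted p = 0.319), and without clone 1 it was -2.47 and passed (adjusted p = 0.0234). Hs3st3b1 had 8.44, 28.4, 17.97 and 13.8 CPM in the same order of controls and 6.33, 4.37 and 4.97 CPM in LIFR KO (-1.58, adjusted p = 0.151). FAM3C KO clones held it at 11.5, 0.880 and 9.41 CPM, so that clone 2 fell below every other library and the group overlapped the controls. Hs3st3a1, its neighbour on chromosome 11, had 1.07, 1.29, 1.03 and 1.25 CPM in the controls and 0.536, 0.250 and 0.815 CPM in LIFR KO (-1.09, adjusted p = 0.0949).

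In all, the groups did not overlap for 7 of the 39 members in LIFR KO (17.9%, 2 higher and 5 lower), against 17.2% of all genes (3.95% higher, 13.2% lower). The median difference of the 39 was -0.28, against -0.16 over all genes tested, and rescaling by median ratios moved these to -0.12 and -0.01. Of all genes called, 115 were higher and 701 lower, or 188 and 301 after that rescaling. After GC correction the median of the members was 0.11 and in clone 1 by itself it was 0.02. In clones 1 to 3 the 13 members with exons of at least 55% GC had median differences of 0.04, -0.88 and -1.03, and the 10 members under 50% GC had 0.07, 0.17 and 0.66. Without LIFR KO clone 1, 26 members and 7232 of all genes passed, whereas without clone 2 no member did. The 8 epithelial markers summed to 1260 to 2160 CPM in LIFR KO and 2530 to 3240 CPM in shPCBP1, and the 12 mesenchymal markers to 1640 to 2230 CPM and 2140 to 2400 CPM, and the part of these levels in the member values was not tested.

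**Figure D4:**
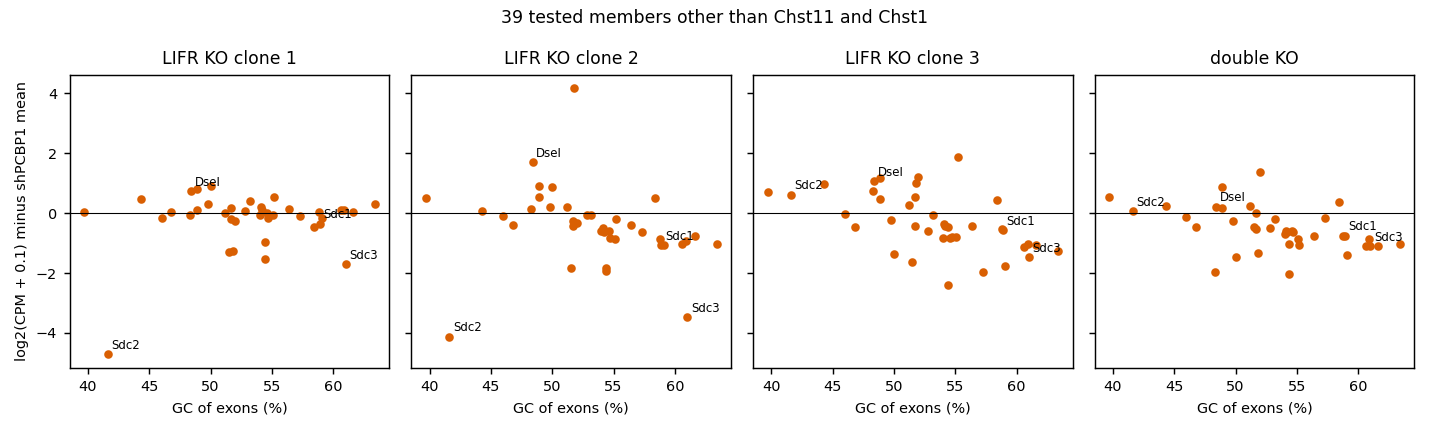
Difference of each of 39 members from the shPCBP1 mean, on the log2(CPM + 0.1) scale, against the GC content of its exons, in the 3 LIFR KO clones and the double KO. Points of clones 2 and 3 and of the double KO slope downwards, with medians of -0.88, -1.03 and -0.88 for members of at least 55% GC, while clone 1 stays level at 0.04.

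Sdc2 and Sulf2, picked after their values were seen, varied widely between clones of one genotype. Sdc2 was at 10.2, 0.360 and 4.11 CPM in FAM3C KO clones 1 to 3, at 0.161, 0.291 and 10.5 CPM in the 3 LIFR KO clones in turn, and at 3.43 to 12.004 CPM in the controls. Sulf2 was at 8.91, 1.47 and 10.003 CPM in CT clones 1 to 3 and 3.75 CPM in the unaltered line, against 0.762, 3.76 and 1.13 CPM in FAM3C KO and 1.56, 1.18 and 0.821 CPM in LIFR KO. It lay below the controls in most clones. CT clone 2 overlapped both knockouts, and the unaltered line overlapped FAM3C KO (adjusted p = 0.438 in FAM3C KO and 0.0919 in LIFR KO by limma).

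Of the 4 members of dataset 1 under the filter, Gpc4 and Chst8 had all 7 knockout libraries below all 4 controls, as did 2.75% of the 1272 genes under it. Gpc4 was at 2.09, 0.162, 0.893 and 0.624 CPM in CT clones 1 to 3 and the unaltered line, and every knockout library listed it at its lowest value. Chst8 was likewise at the lowest value in every knockout library, with 0.0687 to 0.727 CPM in the controls. Levels this low rest on few reads, and no test was made.

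**Figure D5:**
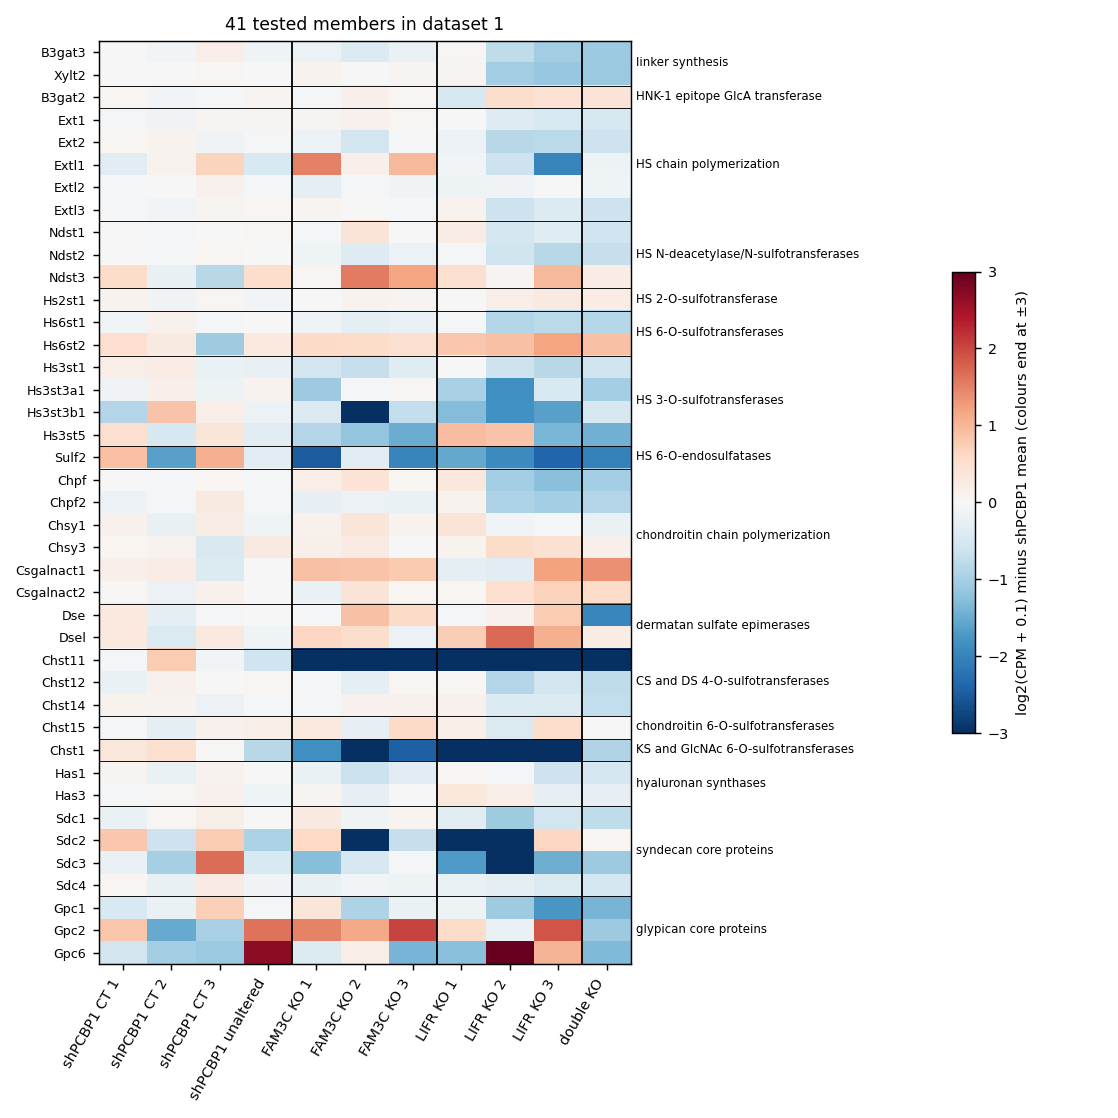
Difference of each library of dataset 1 from the shPCBP1 mean on the log2(CPM + 0.1) scale for the 41 tested members, ordered by step, with colours ending at ±3. Chst11 is low in all 7 knockout libraries and Chst1 in the 6 single knockouts, Sdc2 is low in FAM3C KO clone 2 and LIFR KO clones 1 and 2, and LIFR KO clones 2 and 3 share many paler losses with the double KO.

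The other genes of the pathway, 64 of which were tested in dataset 1 and 53 in dataset 2, supply sugar nucleotides and sulfate, break chains down or encode further core proteins. None passed in FAM3C KO, where 0.309% of all genes did, and 4 (6.25%) did in LIFR KO, against 6.47% of all genes. Ugdh, which makes the UDP-glucuronic acid used by all chains but keratan sulfate, was higher (log2 difference 0.53, adjusted p = 0.0388). Galns (-0.78), Uap1l1 (-0.75) and Col18a1 (-0.71) were lower. These 3 did not pass after GC correction (adjusted p = 0.267 to 0.865) or after median-ratio rescaling (0.0725 to 0.0858), whereas Ugdh passed both (0.0406 and 0.0346). With the 2 groups fitted alone or with a replicate block, no pathway gene passed in LIFR KO, Ugdh included. Of all genes, 34 and 10 passed in those fits. None of the pathway genes passed with any 1 shPCBP1 line left out either, where 5 to 48 of all genes did. In FAM3C KO against LIFR KO, 6 passed (9.38%), all higher in FAM3C KO, where 6.83% of all genes passed as higher. They were Naglu (1.08), Sgsh (1.07), Agrn (1.02), B3galt6 (0.93), Col18a1 (0.81) and Hgsnat (0.47), and none of the 6 was past the threshold after GC correction.

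In dataset 2, 19 of the 53 (35.8%) passed with a fold change of at least 1.5, 7 higher and 12 lower, against 31.1% of all genes, and 4 (7.55%) with at least 4, against 6.04%. It was not checked which of them passed the filter through 1 group only, as 64.8% of all genes past 4-fold did. With 1 CPM added, 3 in place of 4 were past 4-fold, against 343 of all 11384 genes. Papss2, which makes the sulfate donor PAPS, fell by 4.28 on the log2 scale, and Slc26a2, a sulfate transporter, fell by 1.14. The chain-breaking enzymes gave 2 higher and 6 lower, with Hexa (5.54) and Gusb (1.98) rising and Cemip (-2.04) and Sgsh (-1.83) falling. Among core proteins Tgfbr3 (-3.38) and Agrn (-1.77) fell, and Nrp1 (1.83) and Hspg2 (1.70) rose. B3gnt2, which extends keratan sulfate backbones, fell by 1.35.

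Across the 10 libraries of the 3 groups in dataset 1, the genes whose log2 values followed Chst11 most closely were Slc37a3 (Pearson r = 0.97), Fam110b (0.96), Fancf (0.95), Orai2 (0.95) and Zhx3 (0.94). Those closest to Chst1 were Cd276 (0.97), Pccb (0.93), Ajm1 (0.92), Pla2g7 (0.92) and Ly6e (0.92). The points share their groups and, for LIFR KO clones 2 and 3, the trend with GC content, and no test was made.

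Neighbours on the chromosome were also listed, and a regional cause was not tested. The 20 tested genes nearest to Chst11 had a median log2 difference of -0.00 in FAM3C KO (-0.30 to 0.47) and 0.09 in LIFR KO (-0.99 to 0.55). The nearest of them, Slc41a2, was at 0.36 in FAM3C KO and gave the -0.99 in LIFR KO. The 20 nearest to Chst1 had medians of -0.03 (-1.46 to 0.54) and -0.39 (-1.07 to 0.63). In dataset 2 the nearest gene to Chst11, Slc41a2, was at 0.0001 and 0.0190 CPM in NMuMG and 3.06 and 3.36 CPM in shPCBP1, while the median log2 difference of the 20 was 0.04.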

How the data were processed

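RNA-Seq values of 15 libraries in 2 datasets were used. The authors trimmed and aligned paired-end reads of 150 bases, quantified genes in Partek and deposited CPM for each library, and the submitters' processing notes also name Bowtie2 and DESeq with GRCm38 and mm10. Dataset 1 lists no zeros, and dataset 2 adds 0.0001 to every value. Low values were whole multiples of 1 read (within 0.05 of a whole number, up to 60 reads) for 86.4% to 91.5% of values, too few to work back to reads, so count tests were not used. Columns of group means and fold changes in dataset 2 were not used.

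CPM were transformed to log2(CPM + 0.1). Genes averaging 0.5 CPM or more were fitted with limma 3.58.1 (R 4.3.3, mean-variance trend, Benjamini-Hochberg), 12621 in dataset 1 and 11384 in dataset 2. The 3 groups of dataset 1 were fitted together, and the double KO was left out. Tests over genes were two-sided. Members, lists and tests were chosen with earlier results of these data known. The design's threshold of 0.07 follows the study. Named members were Chst11 and Chst1, members called in a knockout comparison, members whose groups did not overlap with a log2 difference of at least 1 and a group mean of at least 1 CPM, up to 10 called each way in dataset 2, and the highest member of each step per kb. GC correction was by loess (span 0.3) on exon GC from GENCODE M21 (GRCm38). Printed gene coordinates are those of M21, since its gene starts matched 14269 of 14795 in dataset 2 and only 302 of 13870 in dataset 1. On data simulated with independent normal noise and planted 4-fold changes, the fit found 192 of 200 changed genes for FAM3C KO (12621 genes). For shPCBP1 against NMuMG (11384 genes) it found 196 of 200. It also called 19 and 7 unchanged genes. The simulated data held no GC trend and no differences between clones shared by genes, so this check does not cover those or smaller changes. Alternatives were a pseudocount of 1, no filter, median-ratio rescaling, GC correction, groups fitted alone, a replicate block, LIFR KO clones 2 and 3 left out, and each library left out. Plots were made in Python 3.11.15 with matplotlib 3.10.9. Library sizes limit counting error only.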

Additional observations from a re-analysis of the deposited data

Results flagged for a closer look

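Gpc6 in the unaltered shPCBP1 line stood far above the CT clones of the same group, with a gap of 0.852 of the group's range on the log2 scale (2.25 CPM against 0.0687 to 0.149 CPM). Hs6st2 in CT clone 3 stood below the other shPCBP1 lines, with a gap of 0.851 of the range (20.03 CPM against 50.6 to 59.6 CPM). About 1 in 20 groups shows such a gap by chance, and 41 members were looked at. Without CT clone 3 the log2 difference of Hs6st2 in LIFR KO was 0.61, against 0.96 with it.

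Sdc1 differed between FAM3C KO and LIFR KO by 0.75 on the log2 scale in the direct test. The difference was 0.18 after GC correction.

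In the double KO, which entered no comparison, Csgalnact1 stood at 8.01 CPM, against 2.23 to 3.56 CPM in the shPCBP1 lines and 5.26 to 5.62 CPM in FAM3C KO.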

How the results depend on the processing

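The 15 members named by the selection rule in dataset 2 kept their direction under all 120 refits. For 7 of the 15, namely Chst11, Chst1, Hs6st2, Hs3st3b1, Gpc1, Sulf2 and Chst8, a kept call says nothing about stability. They passed the filter only through the group in which they were high. The others kept their call in the refits that held every library. Chpf2, also called in dataset 2, was not among the 15. With Chst11 and Chst1 included, the number of members called there was 34 on adjusted p alone and 8 at 4-fold or more, and 16 to 17 with 1 library left out. For the other pathway genes these were 45, 4 and 17 to 21.

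In dataset 1 no named difference turned its direction in 187 refits, but calls were unstable. With 2 groups fitted alone, members called were 3 in FAM3C KO, 0 in LIFR KO and 0 in FAM3C KO against LIFR KO, and pathway genes 3, 0 and 0. With LIFR KO clones 2 and 3 left out, only clone 1 stood for LIFR KO, so no counts are given for that fit. GC correction left 0 members in LIFR KO and 0 in the direct comparison, and 1 and 0 pathway genes. Median-ratio rescaling gave 1 member in LIFR KO, and 2 and 3 pathway genes in LIFR KO and the direct comparison. With 1 library left out, members called ranged from 0 to 2 in FAM3C KO, 0 to 26 in LIFR KO and 0 to 19 in the direct comparison, and pathway genes from 0 to 2, 0 to 30 and 0 to 33. The highest counts for LIFR KO and for the direct comparison came without LIFR KO clone 1, where 7232 and 6674 of all 12621 genes passed. Any 1 of the shPCBP1 lines left out took the LIFR KO member count to 0, as did leaving out FAM3C KO clone 1 or 3 or LIFR KO clone 2. Over all genes, those fits called 5 to 159 in LIFR KO. The 2 members in FAM3C KO came without LIFR KO clone 3, where 354 of all genes passed in FAM3C KO. Of all genes, 39 were called in FAM3C KO, against 1040 with 2 groups fitted alone and 218 after GC correction, and 816 were called in LIFR KO, against 34, 84 and, after median-ratio rescaling, 489. The direct comparison called 1045, against 0 with 2 groups fitted alone, 80 after GC correction and 824 after median-ratio rescaling.

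Same-numbered samples did not pair (correlations of their deviations from -0.18 to 0.15 in dataset 1 and 0.05 in dataset 2). With a replicate block, members called were 0 in LIFR KO and 0 in the direct comparison, pathway genes 0 and 0, and in dataset 2 the block left 16 members. Values near the lowest listed rest on few reads.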

Other observations

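The double KO library, a single clone whose values also fell with GC content, listed Dse at 2.58 CPM, against 8.49 to 12.6 CPM in the shPCBP1 lines and 9.76 to 18.8 CPM in the single knockouts. Its Hs3st5 value of 4.31 CPM lay with FAM3C KO (4.19 to 6.42 CPM) rather than with LIFR KO clones 1 and 2, and its Sdc2 value of 7.03 CPM lay within the control range. In dataset 2 the second nearest gene to Hs3st3b1, Pmp22, was at 0.283 and 0.113 CPM in NMuMG and at 12.6 and 12.9 CPM in shPCBP1, whereas the median log2 difference of the 20 genes nearest to Hs3st3b1 was 0.34.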
